A study of Mus musculus with 4 samples.

Results

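The RNA sequencing values compared here came from immortalized mouse embryonic fibroblasts (MEF) that lacked *Hmga2* (*Hmga2*-/-) or carried both copies (*Hmga2*+/+), each after 24 h with 10 ng/ml human recombinant TGFB1. The members are genes, each represented by the transcript with the longest gene body on its strand, with at least 1 RPKM (reads scaled to transcript length and to the mapped reads of the library) in at least 1 of the 2 TGFB1 columns. This rule kept 10750 of 25897 genes with a named transcript, of which 10246 are protein-coding. Of the kept genes, 10342 had at least 1 RPKM in both columns, 204 only in *Hmga2*-/- cells and 204 only in *Hmga2*+/+ cells. The cut through low values was dense, with 158 genes kept at 1 to 1.1 RPKM and 186 left out at 0.9 to 1 RPKM.

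All cells were C57BL/6 MEF made immortal with SV40, from embryonic day 15.5 bodies without head, limbs, tail, viscera, liver and heart. They were starved overnight in 1% FCS before treatment. Besides the TGFB1 pair, the series holds the *Hmga2*+/+ Ctrl and *Hmga2*-/- Ctrl libraries, from cells of the same genotypes without TGFB1, and they are given here only beside the TGFB1 values. There is 1 library per condition, so no value has a replicate, no test between genotypes was made, and each ratio compares 2 libraries. The labels do not say how many embryos stand behind each genotype, and genotype, line, embryo and culture cannot be told apart. The intervals given for ratios are exact 95% intervals of 2 read numbers and cover counting error only. The number of mapped reads behind each library, worked out from the steps between low RPKM values, lay between 56140000 and 57300000.

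HMGA2 is a small chromatin protein with AT-hooks that bind the minor groove of AT-rich DNA. It is abundant in embryonic mesenchyme and in many tumours, scarce in most adult tissues, and is induced by TGFB1. TGFB1 signals through receptor kinases and SMAD transcription factors, and in fibroblasts it is best known for turning on matrix and contractile genes, among them *Acta2*, the smooth muscle actin that marks myofibroblasts.

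*Hmga2* itself (chr10:120361275-120476935, minus strand, mm10) separated the genotypes in every library. The longest transcript had 14.8 RPKM in *Hmga2*+/+ Ctrl, 40.7 RPKM in *Hmga2*+/+ TGFB1, and 0 RPKM in both *Hmga2*-/- libraries. With 9957 reads against 0, its level was at least 3298-fold lower in *Hmga2*-/- cells under TGFB1, taking 3 reads in the *Hmga2*-/- library as the limit a count of 0 allows. The other 2 *Hmga2* transcripts in the file also had 0 reads in both *Hmga2*-/- libraries, so all 4 libraries went with their labels.

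The microRNA hairpin *Mir763* lies inside *Hmga2* on the same strand, 28 kb from its start and outside its annotated exons. Its hairpin had 87.0 RPKM (593 reads) in *Hmga2*+/+ TGFB1 and 0 reads in *Hmga2*-/- TGFB1, at least 196-fold lower against the same limit of 3 reads. Untreated, it had 248 reads in *Hmga2*+/+ and 0 in *Hmga2*-/- cells. The library covers longer RNA, so reads over this hairpin cannot be told apart from the *Hmga2* precursor. The mature sequence (RefSeq, GRCm38.p6, chr10:120448052-120448073, minus strand) is shown because this hairpin is the non-coding member with the widest gap, with the seed, bases 2 to 8, in capitals.
mmu-miR-763: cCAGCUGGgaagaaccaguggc

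*Igf2bp2*, an RNA-binding protein gene known as a target of HMGA2, was the only other protein-coding gene with at least 5 RPKM in 1 TGFB1 column and under 1 RPKM in the other. It measured 22.7 RPKM in *Hmga2*+/+ and 0.354 RPKM in *Hmga2*-/- cells under TGFB1, 64.2-fold lower, from 5039 and 78 reads (chr16:22059009-22163299). The untreated cells gave 24.9 and 0.722 RPKM, so the gap was present without TGFB1. *Hmga1*, the other member of the HMGA family, was 1.65-fold lower under TGFB1 (14.2 against 8.65 RPKM) and also lower untreated (7.22 against 4.15 RPKM). *Igf2bp3*, a relative of *Igf2bp2*, stayed within 1.5-fold, at 6.00 and 5.10 RPKM.

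Under TGFB1, 365 of the 10750 genes (3.40%) were at least 1.5-fold higher in *Hmga2*-/- cells and 222 (2.07%) were at least 1.5-fold lower. Untreated, 275 of the same genes (2.56%) were higher and 212 (1.97%) were lower. The median log2 ratio over all kept genes was 0.04, with the middle part of the genes between -0.09 and 0.16 (quartiles), and 59.0% of genes lay above 0. The tally shrank at 2-fold, to 110 higher and 77 lower. Protein-coding genes made up 290 of the higher and 149 of the lower genes. Of the 148 others past 1.5-fold, 119 are under 200 bases long, and 30 reached 50 reads in 1 column, so most of them rest on few reads.

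**Figure D1:**
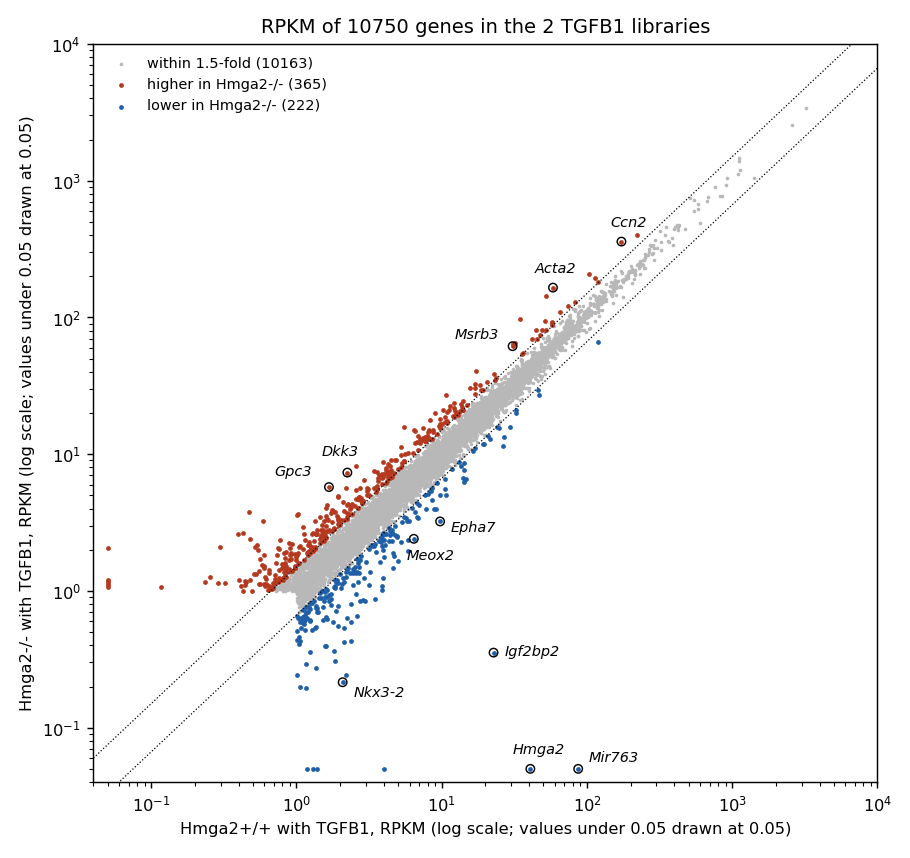
RPKM of each of the 10750 kept genes in *Hmga2*+/+ TGFB1 (horizontal) and *Hmga2*-/- TGFB1 (vertical), both on log scales, 1 point per gene, with dotted lines at 1.5-fold. The 365 higher genes are red and the 222 lower genes blue; *Hmga2* and *Mir763* lie at the lower edge with 0 RPKM in *Hmga2*-/- cells, and *Igf2bp2* lies below the diagonal at 22.7 and 0.354 RPKM.

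Among 6686 protein-coding genes with at least 5 RPKM in 1 TGFB1 column and 1 RPKM in both, the split leaned to higher values. In *Hmga2*-/- cells 144 of these (2.15%) were higher and 44 (0.66%) were lower. Most differences had the same sign in the untreated cells, for 129 of the 144 higher and 41 of the 44 lower genes, although only 55 and 14 of them passed 1.5-fold there. Over all kept genes, 130 were higher in both pairs, which is 35.6% of those higher with TGFB1 and 47.3% of those higher untreated. Likewise 87 were lower in both pairs, 39.2% of those lower with TGFB1 and 41.0% of those lower untreated. These pairs share no library, but they share both cell lines.

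**Figure D2:**
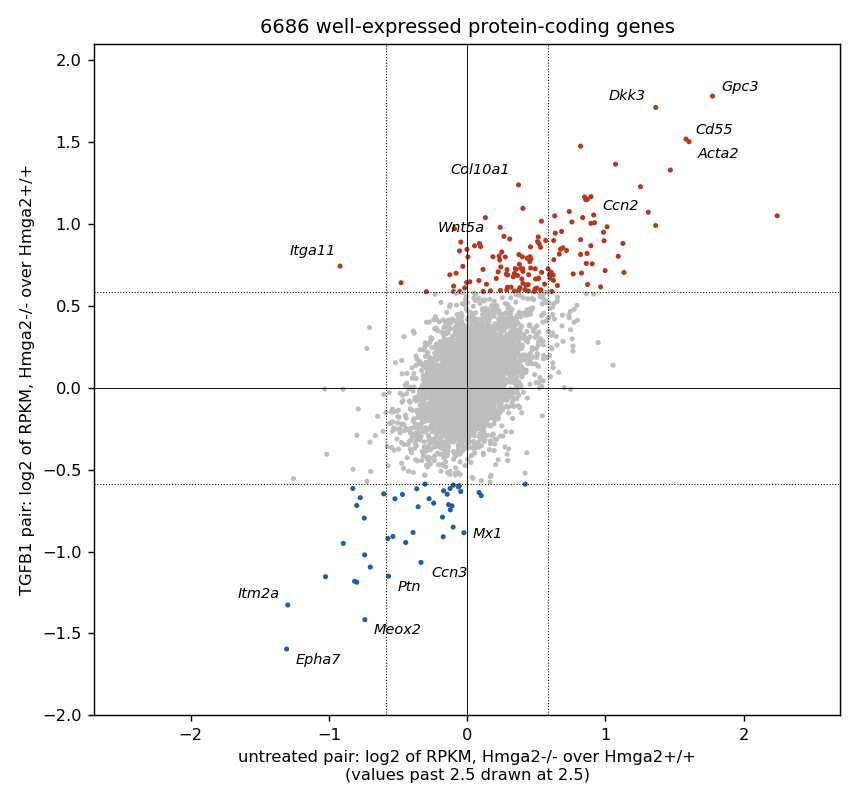
Log2 ratio of *Hmga2*-/- over *Hmga2*+/+ in the untreated pair (horizontal) and in the TGFB1 pair (vertical) for 6686 well-expressed protein-coding genes, 1 point per gene, with dotted lines at 1.5-fold and red or blue for genes past it under TGFB1. *Gpc3*, *Acta2* and *Epha7* were far from 0 in both pairs, *Mx1* and *Col10a1* mainly with TGFB1, and *Itga11* lay on opposite sides.

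The 15 highest and 15 lowest ratios described next are those of these well-expressed genes. *Gpc3*, a glypican that restrains growth, measured 1.67 RPKM in *Hmga2*+/+ TGFB1 and 5.75 RPKM in *Hmga2*-/- TGFB1, 3.44-fold higher, and 3.46 and 11.8 RPKM untreated. *Dkk3*, a secreted protein of the Dickkopf family, followed with 2.24 and 7.34 RPKM, 3.28-fold higher. Over 3 transcripts of *Dkk3* the log2 ratio ran from 0.76 to 1.71, and the one given is the highest. *Cd55*, which protects cells from complement, measured 5.49 and 15.7 RPKM. These 3 genes were lower with TGFB1 than without it in both genotypes, and *Hmga2*-/- cells had more of each in both conditions. *Coch*, a secreted matrix protein gene, reached 10.7 and 26.9 RPKM, and *Ntn4*, a netrin of basement membranes, 2.18 and 5.62 RPKM. *Col10a1*, the collagen of hypertrophic cartilage, was 2.36-fold higher under TGFB1, at 6.40 and 15.1 RPKM, but differed less without it, at 8.24 and 10.7 RPKM. Also among the 15 highest, beside *Acta2*, *Serpine2* and *Tnfrsf11b* (described with their groups), *Cd24a*, *Sfn*, *Cd80* and *Medag* lay between 2.14-fold and 2.25-fold higher, with 6.43 to 20.1 RPKM in *Hmga2*-/- TGFB1.

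At the lower end of the same genes, which leave out genes under 1 RPKM in either column such as *Hmga2* and *Igf2bp2*, the lowest ratio was that of *Epha7*. *Epha7*, an ephrin receptor that guides cell sorting, measured 9.74 RPKM in *Hmga2*+/+ TGFB1 and 3.22 RPKM in *Hmga2*-/- TGFB1, 3.02-fold lower, and 20.6 and 8.31 RPKM untreated. *Meox2*, a homeobox factor of the mesoderm, was 2.67-fold lower, at 6.42 and 2.41 RPKM. *Itm2a*, a membrane protein gene of cartilage and muscle differentiation, was 2.51-fold lower, at 5.87 and 2.34 RPKM. All 3 were also lower in the untreated *Hmga2*-/- cells. *Alcam*, an immunoglobulin-type adhesion molecule, gave 26.3 and 11.6 RPKM. *Ccnd2*, the D-type cyclin that drives entry into the cell cycle, gave 14.7 and 6.61 RPKM, 2.22-fold lower, with 12.0 and 5.90 RPKM untreated. *Ptn*, the heparin-binding growth factor pleiotrophin, was 2.22-fold lower (8.86 and 3.99 RPKM), and *Prg4*, the lubricant proteoglycan of joints, 2.14-fold lower (10.8 and 5.04 RPKM). The other 8 of the 15 lowest (*Slfn8*, *Ccn3*, *Ide*, *Adgrl3*, *Gas2*, *Slc7a2*, *Zfhx4* and *Ifi27l2a*) were 1.88-fold to 2.27-fold lower. *Slfn8* belongs to a family of near-identical genes, so its reads are uncertain. *Penk*, the precursor of enkephalins, was the most abundant lower gene and was named after its values were seen. It had 386 RPKM in *Hmga2*+/+ Ctrl, 118 in *Hmga2*+/+ TGFB1, 360 in *Hmga2*-/- Ctrl and 65.7 in *Hmga2*-/- TGFB1, so the genotypes were 1.80-fold apart with TGFB1 and nearly level without.

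**Figure D3:**
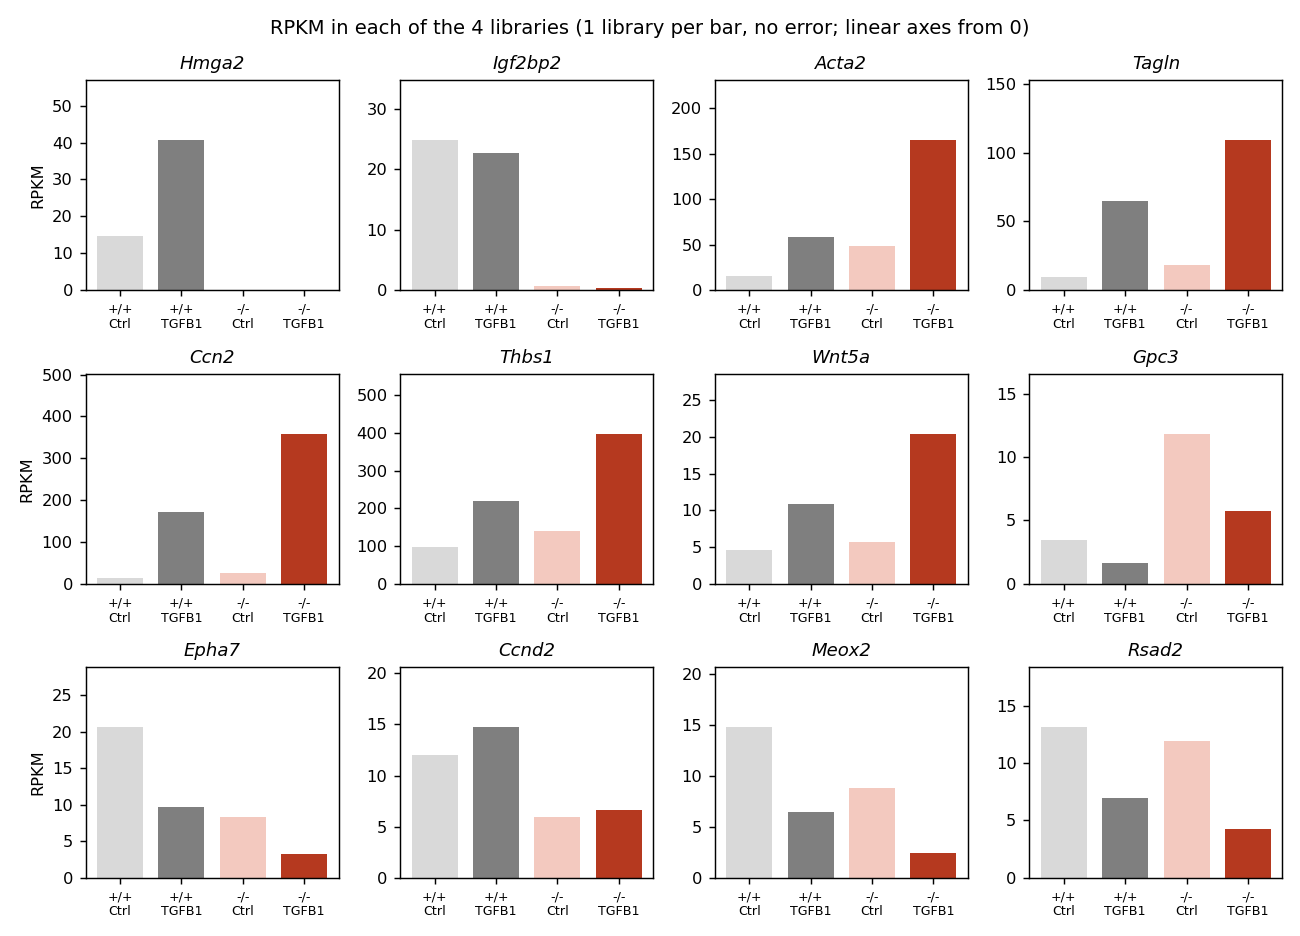
RPKM of 12 genes in each of the 4 libraries, 1 bar per library without replicates, on linear axes that start at 0. *Hmga2* and *Igf2bp2* are at or near 0 in *Hmga2*-/- cells, *Acta2*, *Tagln*, *Ccn2*, *Thbs1* and *Wnt5a* are highest in *Hmga2*-/- TGFB1, and *Epha7*, *Meox2* and *Rsad2* are lowest there.

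Contractile genes, which encode the actin, myosin and calponin parts of smooth muscle and stress fibres, were shifted together. Of 23 listed genes 16 were kept, and 9 were at least 1.5-fold higher in *Hmga2*-/- TGFB1 and 0 lower (3.40% and 2.07% of all kept genes), with a median log2 ratio of 0.59 beside 0.04 over all kept genes. All 16 ratios were above 0. *Acta2* (chr19:34240336-34255373), the marker given for this comparison, had 15.9 RPKM in *Hmga2*+/+ Ctrl, 58.3 in *Hmga2*+/+ TGFB1, 48.2 in *Hmga2*-/- Ctrl and 165 in *Hmga2*-/- TGFB1. The untreated *Hmga2*-/- cells thus held nearly as much *Acta2* RNA as the treated *Hmga2*+/+ cells. Under TGFB1 it was 2.83-fold higher in *Hmga2*-/- cells, with an interval of 1.47 to 1.54 for the log2 ratio, and its gain with TGFB1 was 3.68-fold in *Hmga2*+/+ and 3.43-fold in *Hmga2*-/- cells.

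*Actg2*, the enteric smooth muscle actin, was low but 3.57-fold higher, at 1.02 and 3.65 RPKM. *Cnn1*, smooth muscle calponin, measured 1.45 and 3.49 RPKM, and *Myl9*, the regulatory light chain of myosin, 9.67 and 18.03 RPKM. *Tpm1*, the most abundant of the list, stayed just inside the limit at 509 and 749 RPKM, a log2 ratio of 0.56. Among members chosen here after their values were seen, *Tagln*, an actin-binding protein of smooth muscle, measured 64.8 and 109 RPKM, and *Cnn2*, its calponin relative, 47.3 and 74.98 RPKM. In the untreated pair 5 of the 16 were at least 1.5-fold higher and the median log2 ratio was 0.51. More contractile cells and more RNA per cell cannot be told apart in bulk RNA.

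The bases before the start of 3 of these genes are shown. *Acta2* is the marker given for this comparison, and the other 2 hold an exact CArG box, the 10-base element bound by serum response factor. The box was searched as CC, then 6 bases that are each A or T, then GG. Each is the stretch of 200 bases that ends at the base before the start, read along the gene's strand, from RefSeq on GRCm38.p6. Capitals mark CATTCC or its reverse complement GGAATG, known as the element of TEAD factors, in *Acta2* (chr19:34255374-34255573, minus strand, 146 bases before the start), and the CArG box in *Myl9* (chr2:156775264-156775463, plus strand, 161 bases before) and *Cnn2* (chr10:79988400-79988599, plus strand, 56 bases before). Both strands were searched, and the CArG box reads alike on both. With 1 of the 6 middle bases allowed to be C or G, *Acta2* holds ccctatatgg 84 bases and ccttgtttgg 34 bases before its start, and 7.24% of all promoters hold such a near match in 250 bases.
Acta2: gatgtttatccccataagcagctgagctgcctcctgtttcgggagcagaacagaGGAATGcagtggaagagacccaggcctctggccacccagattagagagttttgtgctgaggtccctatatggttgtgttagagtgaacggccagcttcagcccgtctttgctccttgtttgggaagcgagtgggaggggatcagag
Myl9: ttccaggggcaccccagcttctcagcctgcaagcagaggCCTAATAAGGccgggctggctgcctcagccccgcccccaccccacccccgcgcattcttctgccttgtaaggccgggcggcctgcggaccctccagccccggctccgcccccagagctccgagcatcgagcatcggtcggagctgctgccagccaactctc
Cnn2: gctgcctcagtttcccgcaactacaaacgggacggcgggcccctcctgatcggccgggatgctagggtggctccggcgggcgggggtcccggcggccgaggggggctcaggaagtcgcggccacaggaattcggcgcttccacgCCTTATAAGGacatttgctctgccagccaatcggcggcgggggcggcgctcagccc

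In windows of 250 bases before the start, 2 of 11 kept contractile genes with a matching promoter held an exact CArG box, both among the 6 past 1.5-fold, against 1.47% of all 32851 promoters and 1.16% of the 6809 kept genes with one. Among genes higher in *Hmga2*-/- TGFB1 the share was 9 of 185, and among lower genes 0 of 95. The 9 include *Acta1*, the skeletal muscle actin (0.426 and 2.64 RPKM), and *Srf*, which encodes serum response factor itself (4.55 and 6.86 RPKM), both named after their values were seen. *Acta1* and *Cbr2* (0.850 and 1.52 RPKM) were kept only through the column where they were higher, and with at least 1 RPKM in both columns the shares were 7 of 146 and 0 of 64. CATTCC was found in 4 of the 11 contractile promoters but in 1 of the 6 past 1.5-fold, that of *Acta2*. It was found in 12.6% of all promoters and 10.1% of those of kept genes, in 10.3% of the higher genes' promoters and in 13.7% of the lower genes' promoters. These shares were not tested, and a match describes letters only.

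**Figure D4:**
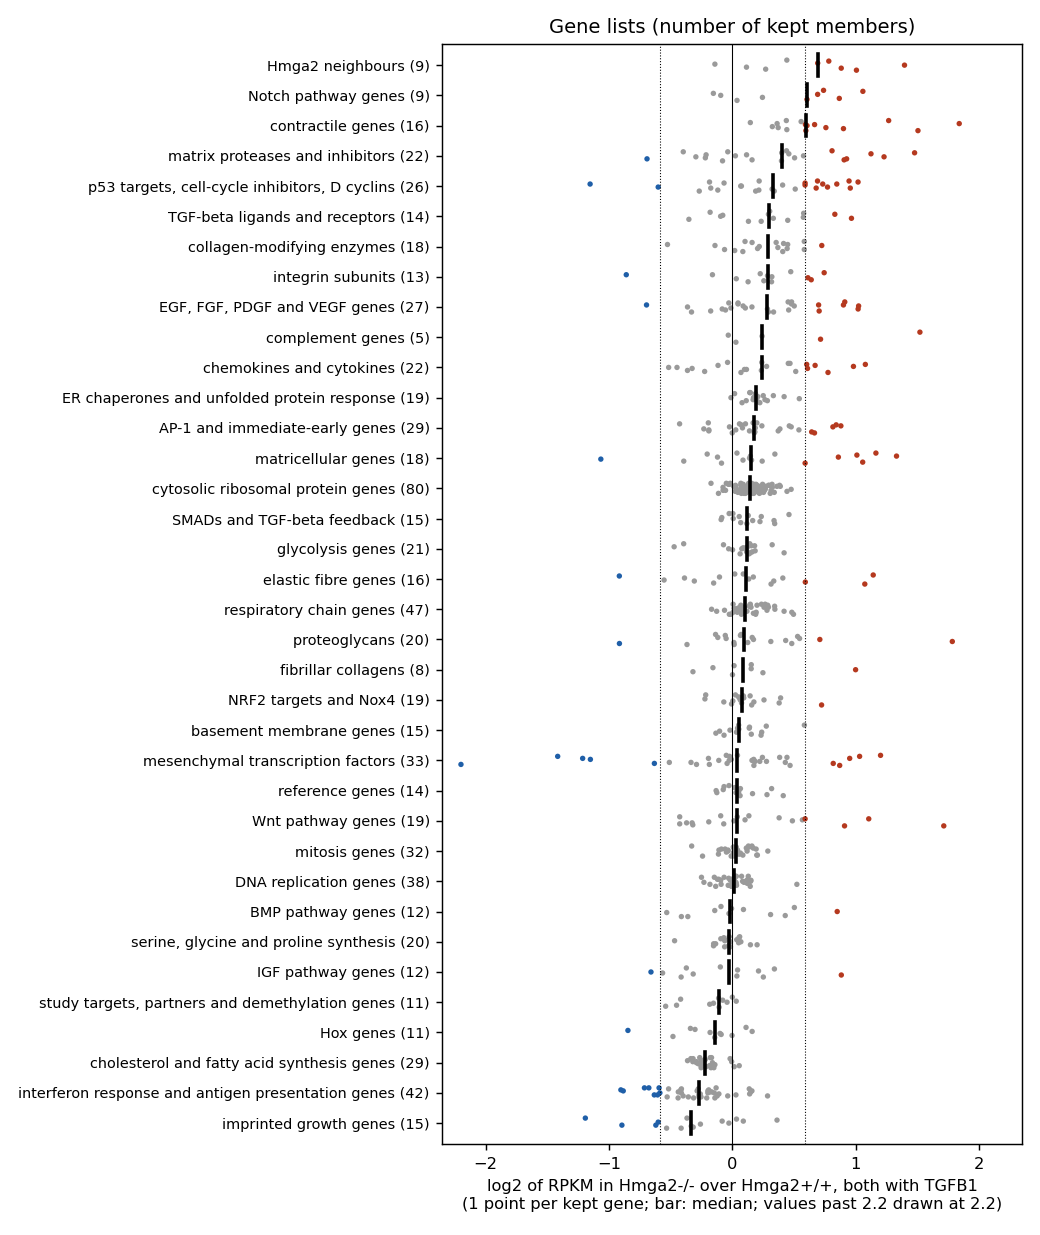
Log2 ratio of *Hmga2*-/- over *Hmga2*+/+, both with TGFB1, for the kept members of each gene list, 1 point per gene, with a bar at the median and dotted lines at 1.5-fold. Contractile genes lie wholly to the right of 0 (median 0.59), interferon genes mostly to the left (median -0.27), and mitosis and DNA replication genes stay between the dotted lines.

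Matricellular genes, whose secreted products tune how cells contact the matrix, showed 6 of 18 kept members higher and 1 lower, with a median log2 ratio of 0.15, and 5 and 1 of the 16 with at least 1 RPKM in both columns. Of all kept genes 3.40% were higher and 2.07% lower. A gene that reached 1 RPKM in 1 column alone had to be higher there to be kept, so list counts are given both ways where they differ. *Ccn2*, the connective tissue growth factor, measured 173 RPKM in *Hmga2*+/+ TGFB1 and 359 RPKM in *Hmga2*-/- TGFB1, against 13.2 and 24.9 RPKM untreated. It was thus 2.08-fold higher in the TGFB1 pair, a log2 ratio of 1.06 (1.03 to 1.08). *Ccn5*, a relative without the last domain of the family, was 2.51-fold higher, at 1.93 and 4.84 RPKM, and *Ccn4*, a Wnt-induced member, just passed the limit at 36.4 and 54.7 RPKM. *Ccn3* went the other way, at 14.0 and 6.66 RPKM, so the CCN family split. *Tnn*, tenascin W, was low at 0.717 and 1.60 RPKM, and *Fn1*, fibronectin, the most abundant of the list, did not differ by the limit (818 and 769 RPKM). *Thbs1*, thrombospondin 1, and *Ccn1*, the remaining members past the limit, were named after their values were seen, at 219 and 398 RPKM and at 103 and 207 RPKM.

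Matrix proteases and their inhibitors had 6 of 22 kept members higher and 1 lower, with a median of 0.40, beside 3.40% and 2.07% of all kept genes. With 1 RPKM in both columns the counts were 5 and 0 of 20. *Serpine2*, the protease inhibitor nexin, was 2.34-fold higher but barely moved with TGFB1, at 17.2 and 40.4 RPKM treated and 15.3 and 36.4 RPKM untreated. The aggrecanase *Adamts4* (1.78 and 3.87 RPKM) and *Adamts12* (4.76 and 9.04 RPKM) were also higher under TGFB1, and both stayed within 1.5-fold untreated. *Timp1*, the most abundant inhibitor, was level at 153 and 155 RPKM.

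Structural matrix genes were counted in 5 lists, to be read beside 3.40% higher and 2.07% lower among all kept genes. Of 8 kept fibrillar collagens, 1 was higher, *Col27a1* of cartilage (1.39 and 2.78 RPKM), while *Col1a1* gave 363 RPKM in both genotypes, *Col1a2* 212 and 190 RPKM and *Col3a1* 176 and 141 RPKM. Of 15 basement membrane genes 0 passed 1.5-fold, with *Sparc* at 424 and 439 RPKM. Among 18 collagen-modifying enzymes only *Loxl4*, a lysyl oxidase, passed the limit (2.55 and 4.21 RPKM), while *Lox*, the most abundant, measured 547 and 726 RPKM and 15 of 18 were above 0. In the elastic fibre list 3 of 16 were higher, *Efemp1* (1.77 and 3.90 RPKM), *Mfap5* (7.38 and 15.5 RPKM) and *Fbln5* (35.9 and 54.0 RPKM), and 1 was lower, *Mfap2* (2.56 and 1.35 RPKM). Proteoglycans gave 2 of 20 higher, *Gpc3* and the syndecan *Sdc3* (3.56 and 5.81 RPKM), and 1 lower, *Acan*, aggrecan (1.15 and 0.609 RPKM), which was kept through 1 column alone. The median log2 ratio was 0.08 for fibrillar collagens, 0.05 for basement membrane genes and 0.29 for collagen-modifying enzymes.

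Integrin subunits, the receptors for matrix, gave 3 of 13 higher and 1 lower, beside 3.40% and 2.07% of all kept genes. *Itga11*, the collagen-binding alpha 11 chain, measured 9.60 RPKM in *Hmga2*+/+ TGFB1 and 16.1 RPKM in *Hmga2*-/- TGFB1, whereas untreated cells gave 1.55 and 0.822 RPKM. *Hmga2*-/- cells therefore held less of it than *Hmga2*+/+ cells without TGFB1 and more of it with TGFB1. *Itga8* (1.76 and 2.74 RPKM) and *Itgb4* (1.29 and 1.97 RPKM) were slightly past the limit, and *Itgb8*, which activates latent TGFB1, was 1.82-fold lower, at 3.89 and 2.14 RPKM. *Itgb1*, the common beta chain, measured 285 and 340 RPKM.

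Lists of the TGFB1 pathway itself had few genes past 1.5-fold, as did all kept genes, of which 5.46% passed either way. Of 14 kept ligands and receptors 2 were higher, *Fstl3*, an inhibitor of activins (10.4 and 18.6 RPKM), and *Gdf6*, a growth factor of joints (0.801 and 1.56 RPKM). *Gdf6* was kept through 1 column alone and fell inside the limit with a pseudocount of 1 RPKM (log2 ratio 0.51). Among 15 SMAD and feedback genes 0 passed 1.5-fold. *Smad7*, the inhibitory SMAD, measured 10.6 and 14.6 RPKM, and *Pmepa1*, another feedback inhibitor and the most abundant of the list, 113 and 143 RPKM. In the BMP list 1 of 12 was higher, the antagonist *Nog* (0.990 and 1.78 RPKM), while *Id2*, a target of BMP signals, was within the limit at 8.54 and 5.91 RPKM. *Nog* too was kept through 1 column alone and fell inside the limit with that pseudocount (log2 ratio 0.48), which leaves 0 of 11. In the IGF list *Igfbp3* was higher (3.88 and 7.15 RPKM) and *Igfbp5* lower (4.13 and 2.62 RPKM), with *Igf2* at 45.8 and 34.3 RPKM.

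Among EGF, FGF, PDGF and VEGF genes and other growth factors 6 of 27 were higher and 1 lower, with a median of 0.28, and 5 and 1 of 26 with 1 RPKM in both columns. Beside these and the Wnt and Notch counts below, 3.40% of all kept genes were higher and 2.07% lower. The platelet-derived growth factors *Pdgfa* (4.11 and 7.67 RPKM) and *Pdgfb* (0.9 and 1.82 RPKM) were both higher, as was the neurotrophic factor *Gdnf* (1.28 and 2.60 RPKM). *Pdgfb* was kept through 1 column alone and fell inside the limit with a pseudocount of 1 RPKM (log2 ratio 0.57). The more abundant *Pdgfc* (21.6 and 29.5 RPKM) and *Pdgfd* (9.60 and 13.6 RPKM) stayed within the limit. *Hbegf*, the most abundant, was within the limit at 104 and 128 RPKM. In the Wnt list 4 of 19 were higher, *Dkk3*, *Ccn4* and the ligands *Wnt9a* (2.08 and 4.47 RPKM) and *Wnt5a* (10.9 and 20.4 RPKM), and both ligands differed by less than 1.5-fold untreated. In the Notch list 5 of 9 were higher and 0 lower, with a median log2 ratio of 0.60 under TGFB1 and -0.02 untreated. They include the ligand *Jag1* (8.72 and 14.5 RPKM) and the targets *Hes1* (13.7 and 22.1 RPKM), *Hey1* (0.715 and 1.30 RPKM) and *Hey2* (0.609 and 1.27 RPKM). Only 5 of the 9 Notch genes had 1 RPKM in both columns, and 2 of these were higher.

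Immediate-early genes, which encode AP-1 factors and the phosphatases that follow growth signals, gave 5 of 29 higher and 0 lower. The shares among all kept genes were 3.40% and 2.07%, and the list median was 0.18. *Ier3* (6.52 and 12.0 RPKM), *Dusp1* (2.71 and 4.85 RPKM), the AP-1 subunit *Junb* (14.0 and 24.7 RPKM) and *Dusp5* (12.0 and 18.97 RPKM) were among the 5 higher, and *Jun*, the most abundant, was not (66.6 and 76.4 RPKM). In the untreated pair 3 of the 29 were higher and 1 lower, with a median of 0.19. Of 26 p53 targets, cell-cycle inhibitors and D-type cyclins, 10 were higher and 2 lower, beside 3.40% and 2.07% of all kept genes. Their median was 0.33. *Pmaip1*, which encodes the death factor NOXA, measured 31.9 and 64.5 RPKM, *Gadd45g* 12.2 and 23.6 RPKM and the death receptor *Fas* 4.11 and 7.91 RPKM. *Mdm2*, the p53 ubiquitin ligase, and *Cdkn1a*, the inhibitor p21, were also higher and were named after their values were seen, at 57.2 and 91.5 RPKM and at 12.4 and 20.7 RPKM. The 2 lower members were *Ccnd2* and *Cdkn1c*, and *Cdkn2a*, the most abundant, was within the limit at 204 and 179 RPKM. SV40 large T antigen binds p53, which limits these cells as a model of p53 activity.

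Interferon response and antigen presentation genes moved the other way. Of 42 kept members 8 were at least 1.5-fold lower in *Hmga2*-/- TGFB1 and 0 higher, beside 2.07% and 3.40% of all kept genes. Under TGFB1 36 lay below 0, and the median log2 ratio was -0.27, with -0.10 untreated. *Mx1*, a GTPase that blocks viruses, had 12.3 RPKM in *Hmga2*+/+ Ctrl, 5.98 in *Hmga2*+/+ TGFB1, 12.1 in *Hmga2*-/- Ctrl and 3.24 in *Hmga2*-/- TGFB1. The untreated libraries were thus level and the treated ones 1.85-fold apart. *Oas2*, which makes the activator of RNase L, measured 4.06 and 2.17 RPKM, *Rsad2*, the antiviral enzyme viperin, 6.97 and 4.25 RPKM, and *Dhx58*, an RNA sensor, 10.6 and 6.63 RPKM. In the untreated pair 0 of the 42 genes passed 1.5-fold in either direction, but 33 lay below 0. There *Oas2* gave 5.26 and 4.14 RPKM, *Rsad2* 13.1 and 11.9 RPKM and *Dhx58* 17.7 and 12.3 RPKM. *B2m*, the light chain of class I molecules and the most abundant of the list, was level at 907 and 925 RPKM. Several members (*Ifit3* and *Ifit3b*, the class I heavy chains) have close copies, and how reads were shared between copies is uncertain.

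The upstream bases of the 3 interferon genes past 1.5-fold that had a promoter at the deposited start are shown because all 3 hold GAAANNGAA, the core of the interferon-stimulated response element. Capitals mark it on either strand, and on the other strand it reads TTCNNTTTC. The stretches of 200 bases, from RefSeq on GRCm38.p6 along each gene's strand, are *Rsad2* (chr12:26456453-26456652, minus strand, 1 match), *Ifit3* (chr19:34583329-34583528, plus strand, 3 matches) and *Gbp7* (chr3:142530136-142530335, plus strand, 1 match).
Rsad2: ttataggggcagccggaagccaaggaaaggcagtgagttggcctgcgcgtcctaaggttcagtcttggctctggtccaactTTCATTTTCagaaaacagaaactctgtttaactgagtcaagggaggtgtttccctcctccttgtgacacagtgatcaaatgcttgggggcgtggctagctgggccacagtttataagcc
Ifit3: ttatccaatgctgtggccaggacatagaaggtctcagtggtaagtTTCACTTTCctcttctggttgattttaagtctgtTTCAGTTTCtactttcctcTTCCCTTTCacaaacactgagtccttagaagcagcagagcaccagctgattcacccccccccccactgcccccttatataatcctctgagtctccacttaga
Gbp7: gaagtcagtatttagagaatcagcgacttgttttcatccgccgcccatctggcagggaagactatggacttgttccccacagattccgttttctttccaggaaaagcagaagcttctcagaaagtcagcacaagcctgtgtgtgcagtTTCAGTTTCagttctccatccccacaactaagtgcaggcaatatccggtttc

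*Ifit3* measured 32.5 and 20.9 RPKM and *Gbp7*, a guanylate-binding protein gene, 9.23 and 6.14 RPKM under TGFB1. In the 250 bases before the start, 11 of 26 kept interferon genes with a promoter held GAAANNGAA, against 7.13% of all promoters and 6.12% of kept genes with one. It was found in 21.1% of the promoters of lower genes (20 of 95) and in 7.57% of those of higher genes (14 of 185), and with 1 RPKM in both columns in 14 of 64 and 9 of 146. These shares were not tested.

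Chemokines and cytokines, by contrast, gave 6 of 22 higher and 0 lower, beside 3.40% and 2.07% of all kept genes. Their median was 0.24 both with TGFB1 and untreated, where 7 of the 22 were higher and 0 lower. *Tnfrsf11b*, the decoy receptor osteoprotegerin, measured 8.36 and 17.6 RPKM, *Cxcl14* 6.89 and 13.6 RPKM, *Il11* 1.24 and 2.11 RPKM and *Lif* 3.17 and 5.04 RPKM. *Il1rl1*, the receptor of interleukin 33 and the most abundant, measured 156 and 189 RPKM. In the complement list 2 of 5 kept genes were higher, *Cd55* and the inhibitor *Serping1* (0.706 and 1.16 RPKM). *Serping1* was kept through 1 column alone and fell inside the limit with a pseudocount of 1 RPKM (log2 ratio 0.34), which leaves *Cd55* of 4.

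Imprinted growth genes gave 0 of 15 higher and 4 lower, beside 3.40% and 2.07% of all kept genes, with a median of -0.33. *Meg3* and *Rian*, maternally expressed non-coding RNAs, and *Dlk1*, the paternally expressed gene of the same cluster on chromosome 12, were all lower. *Meg3* measured 5.25 and 2.30 RPKM, *Rian* 4.34 and 2.33 RPKM and *Dlk1* 2.26 and 1.47 RPKM, and all 3 were also at least 1.5-fold lower untreated. *Cdkn1c*, a growth inhibitor, was 1.52-fold lower (4.37 and 2.88 RPKM), whereas *H19*, the most abundant, stayed level at 472 and 445 RPKM.

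Transcription factors of mesenchyme moved in both directions, 5 of 33 higher and 5 lower, and 3 and 3 of the 27 with 1 RPKM in both columns. The shares among all kept genes were 3.40% higher and 2.07% lower. *Nkx3-2*, a factor of the axial skeleton, had the widest gap, 2.08 and 0.215 RPKM under TGFB1 and 4.59 and 1.06 RPKM untreated, with only 18 reads in *Hmga2*-/- TGFB1 (log2 ratio -3.27, -4.06 to -2.57). *Tbx4*, a hindlimb factor, was 2.32-fold lower, at 3.78 and 1.63 RPKM, and *Six2*, a factor of kidney and joint mesenchyme, 2.30-fold higher, at 0.904 and 2.08 RPKM. *Prrx1*, the most abundant, was level at 58.1 and 57.2 RPKM. Of 11 kept Hox genes 1 was lower, *Hoxa6* (1.68 and 0.934 RPKM, from 67 and 37 reads, kept through 1 column alone), and *Hoxd13*, the most abundant, measured 39.3 and 36.7 RPKM.

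Growth and housekeeping programmes were close to even. Their counts are to be read beside 3.40% higher and 2.07% lower among all kept genes, so 0 in a short list is near those shares. Of 32 mitosis genes, 38 DNA replication genes, 47 respiratory chain genes, 21 glycolysis genes, 20 serine, glycine and proline synthesis genes, 19 chaperone and unfolded protein genes and 80 ribosomal protein genes, 0 passed 1.5-fold in either direction. *Mki67*, the proliferation antigen, measured 122 and 103 RPKM, *Pcna* 98.8 and 106 RPKM and *Rrm2*, a subunit of ribonucleotide reductase, 38.5 and 55.3 RPKM. Small shifts that ran through a list were seen in ribosomal protein genes, 71 of 80 above 0 with a median of 0.15, in chaperone genes, 18 of 19 with a median of 0.19, in respiratory chain genes, 42 of 47 with a median of 0.10, and in glycolysis genes, 17 of 21 with a median of 0.12, beside 59.0% of all kept genes above 0. Cholesterol and fatty acid synthesis genes ran the opposite way. Under TGFB1 27 of 29 were below 0, with a median of -0.22, and 0 passed the limit. Untreated, all 29 were below 0, with a median of -0.43, and 4 were at least 1.5-fold lower, beside 1.97% of all kept genes. *Hmgcs1*, an early enzyme of that pathway, measured 79.1 and 61.4 RPKM, and *Scd1*, a fatty acid desaturase, 103 and 82.3 RPKM. In the list of NRF2 targets and *Nox4*, 1 of 19 kept genes was higher and 0 lower, beside 3.40% and 2.07% of all kept genes. The 1 higher was *Nox4*, an oxidase induced by TGFB1, at 3.44 and 5.67 RPKM.

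A list of 13 genes joined the promoters and chromatin factors that the study assayed with the demethylation genes *Tet2*, *Tet3* and *Tdg*. The 11 kept all stayed within 1.5-fold, with a median of -0.11. Of all kept genes only 5.46% passed 1.5-fold either way, so 0 of 11 is near that share. Among the study's chosen targets *Gata6* measured 1.196 and 1.11 RPKM and *Mtor* 8.54 and 8.08 RPKM. *Rptor*, which served as a negative control, measured 7.01 and 6.17 RPKM. *Atm*, the kinase that phosphorylates H2A.X, gave 22.3 and 16.3 RPKM, *H2afx* 25.8 and 23.9 RPKM, and the FACT subunits *Supt16* 131 RPKM in both and *Ssrp1* 132 and 135 RPKM. *Tet2* (4.66 and 3.20 RPKM), *Tet3* (4.29 and 3.21 RPKM) and *Tdg* (9.77 and 8.78 RPKM) were lower within the limit, as was *Gadd45a* (79.2 and 76.9 RPKM). The 2 not kept had under 1 RPKM in both columns. *Igf1*, another chosen target, measured 0.825 and 0.639 RPKM, and 1.48 and 0.727 RPKM untreated, where it was thus past 1.5-fold lower. *Tet1*, a demethylation gene, measured 0.456 and 0.249 RPKM, also past 1.5-fold lower but not counted at that level.

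Genes that start within 700 kb of *Hmga2* on chromosome 10 were mostly higher in *Hmga2*-/- cells. Of 12 listed neighbours 9 were kept, 5 were at least 1.5-fold higher in *Hmga2*-/- TGFB1 and 0 lower, beside 3.40% and 2.07% of all kept genes. Their median log2 ratio was 0.69, and untreated it was 0.295 with 2 higher. The list leaves out some genes farther away. Counting every kept protein-coding gene, 5 of 6 within 700 kb were higher, and 0 of 9 from 700 to 2000 kb (median 0.11). With 1 RPKM in both columns 4 of 8 were higher. *Msrb3*, a methionine sulfoxide reductase gene that starts 422 kb upstream of *Hmga2*, measured 35.1 RPKM in *Hmga2*+/+ Ctrl, 30.7 in *Hmga2*+/+ TGFB1, 65.3 in *Hmga2*-/- Ctrl and 61.7 in *Hmga2*-/- TGFB1. The genotypes were thus 2.01-fold apart with TGFB1 and similarly apart without it. On the other side, *Llph* (250 kb, 3.67 and 6.75 RPKM), *Tmbim4* (268 kb, 9.68 and 16.6 RPKM) and *Irak3* (275 kb, 0.506 and 1.33 RPKM) were higher too. *Lemd3*, an inner nuclear membrane protein gene that binds SMADs, starts 502 kb upstream and measured 7.69 and 12.4 RPKM. *Helb*, at 364 kb, was within the limit (8.19 and 9.87 RPKM). Every other kept protein-coding gene that starts within 2000 kb on either side was within 1.5-fold, and the 499 kept protein-coding genes of chromosome 10 had a median of 0.07.

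**Figure D5:**
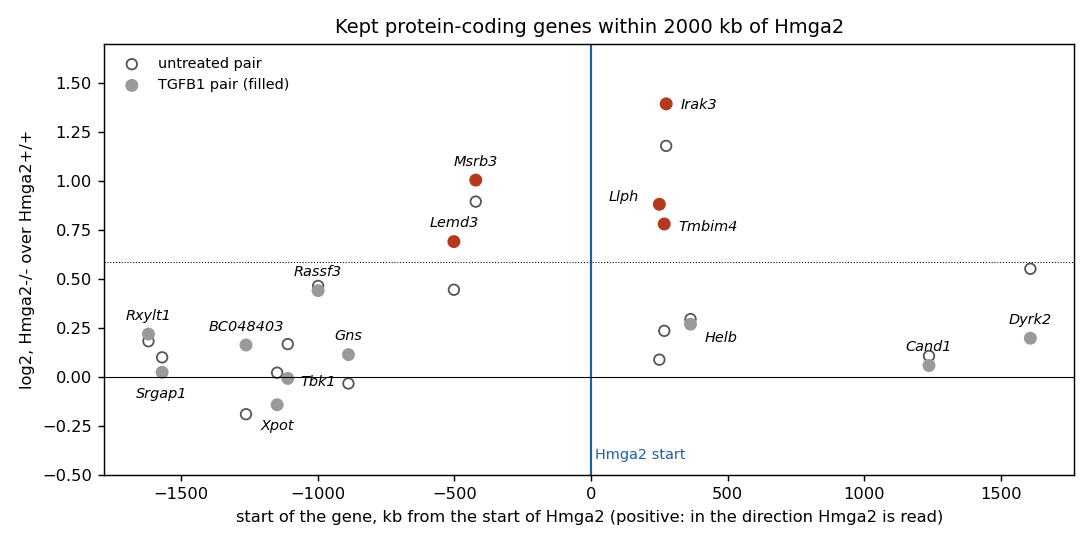
Log2 ratio of *Hmga2*-/- over *Hmga2*+/+ for the kept protein-coding genes that start within 2000 kb of the start of *Hmga2*, by distance in kb, filled for the TGFB1 pair (red past 1.5-fold) and open for the untreated pair. The 5 genes past the dotted line at 1.5-fold start between 250 and 502 kb away, on both sides.

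The cells carried fibroblast markers in both genotypes. Of 14 fibroblast markers 12 were kept, with 1, *S100a4*, higher (18.3 and 32.0 RPKM), and *Vim* at 1119 and 1389.7 RPKM, and their summed level was 2092 RPKM in *Hmga2*+/+ and 2311 RPKM in *Hmga2*-/- TGFB1. Skeletal muscle markers were all below 1 RPKM (0 of 12 kept, sums 0.285 and 0.419 RPKM, with *Myod1*, *Myog*, *Myf5* and *Ckm* at 0), and so were all 5 mesothelial markers. Of 9 endothelial markers 2 were kept, *Kdr*, which was higher (4.46 and 7.39 RPKM), and *Egfl7*, lower within the limit (1.34 and 0.91 RPKM). *Tie1* was at 0, and the endothelial list sums were 6.38 and 9.27 RPKM. Of 10 epithelial markers 1 was kept, *Krt19* (1.92 and 4.93 RPKM), with sums of 3.15 and 6.09 RPKM and *Krt5* and *Cldn4* at 0. Blood and macrophage markers kept only *Cd68* (1.27 and 1.25 RPKM), and adipocyte markers only *Fabp4* (1.101 and 0.914 RPKM). Of 9 neural markers 3 were kept, with *Tubb3* higher (2.81 and 4.37 RPKM) and *Sox2* lower (3.20 and 1.37 RPKM), and of 12 cartilage and bone markers 3, with *Acan* lower. *Xist*, the RNA of the inactive X chromosome, was present in both genotypes (51.6 and 38.9 RPKM), while the 4 Y-linked genes listed had at most 0.008 RPKM in any library.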

How the data were processed

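Total RNA of 4 libraries was sequenced as single-end 75-base reads with a strand-specific kit. Per the labels and methods, the authors trimmed reads (Trimmomatic), aligned them to mm10 (HISAT2 2.1.0) and wrote RPKM per transcript with HOMER, which per the file headers counted exons on the sense strand. The deposited RPKM values are scaled to transcript length and mapped reads. The study's methods mention duplicate sequencing of 1 experiment, and 1 column per condition was deposited. Transcripts were named by span and strand from GENCODE vM21 (57708 of 63759), and the longest span stood for each gene. Ratios used 0.001 for 0 RPKM and a 1.5-fold limit, as in the study's methods. Reads were worked out from RPKM, length and depth; all low values tested (1034 to 1067 per library) came out whole within 0.1 read. No test was made, since each condition has 1 library. Named genes are the 15 highest and 15 lowest protein-coding genes with 5 RPKM in 1 and 1 RPKM in both TGFB1 columns, up to 4 members with the largest ratios and the most abundant member of each list, all markers, and the study's assayed genes with Tet2, Tet3 and Tdg. Some genes this rule picks are not reported here. Members and lists were chosen with earlier results of these data known. Scripts, tested on simulated data, ran in Python 3.11.15 with scipy 1.17.1, pandas 2.3.3 and numpy 2.4.6. Alternatives were other pseudocounts, filters, scaling and transcripts, protein-coding genes alone and a 2-fold limit.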

Additional observations from a re-analysis of the deposited data

Results flagged for a closer look

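*Itga11* was at least 1.5-fold apart in opposite directions in the 2 pairs. It was not alone: 31 kept genes were higher with TGFB1 and lower untreated past that limit, and 11 the reverse. Its log2 ratio of *Hmga2*-/- over *Hmga2*+/+ was 0.74 with TGFB1 and -0.92 untreated, from 9.60 and 16.1 RPKM with TGFB1 and 1.55 and 0.822 RPKM without. Its gain with TGFB1 was 6.18-fold in *Hmga2*+/+ and 19.6-fold in *Hmga2*-/- cells. With 1 library per condition, the difference between the pairs was not tested.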

How the results depend on the processing

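No paired analysis was possible because each condition holds 1 library. The counts of higher and lower genes (365 and 222) became 210 and 112 with a pseudocount of 1 RPKM, 2433 and 2144 with no filter beyond a value above 0, 153 and 57 with at least 5 RPKM in 1 column, and 110 and 77 at 2-fold. With at least 1 RPKM in both columns they were 262 and 130. A pseudocount of 0.1, rescaling to a median ratio of 1, the transcript with the highest mean RPKM and protein-coding genes alone kept both counts within 1.5 times. The share of higher genes among those past the limit was 62.2%, with 55.7% after rescaling, 72.9% at 5 RPKM and 53.2% without a filter. In repeats for the 102 named genes past the limit, chosen after seeing the data, *Itgb4* fell inside it in all 4 repeats, *Ccn4* and *Fbln5* after rescaling, and 21 genes, mostly under 5 RPKM, with a pseudocount of 1 RPKM. The intervals cover counting error only, and the spread between cultures is unknown.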

Other observations

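Outside the named lists, *Gm7030*, a gene of the class I region on chromosome 17, had 204 reads (3.99 RPKM) in *Hmga2*+/+ TGFB1 and 0 reads in the other 3 libraries. It has close copies, and its reads are uncertain. *Btaf1* and *Ide*, near each other on chromosome 19, were lower in *Hmga2*-/- cells in both pairs, *Btaf1* at 24.8 and 15.6 RPKM with TGFB1 and *Ide* at 27.0 and 13.3 RPKM. Chromosome medians of the log2 ratio over protein-coding genes lay between 0.02 (chromosome 16) and 0.09 (chromosome 7).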
